A study of Mus musculus with 6 samples.

Results

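The genes described here are 10 genes of the contractile machinery of smooth muscle cells and myofibroblasts, *Acta2*, *Tagln*, *Myh11*, *Cnn1*, *Myl9*, *Smtn*, *Lmod1*, *Des*, *Mylk* and *Actg2*. They were taken by symbol from the 49548 genes of the count table, where all 10 were present. The data are poly(A)-selected, directional RNA-seq libraries of native cardiac fibroblasts (CFs) from mice aged 5 weeks, 3 of wildtype (WT) and 3 of CharmeKO genotype, with no treatment in either group. *Charme* is a muscle lncRNA, and per the study's methods the CharmeKO animals carry a poly(A) signal inserted in its locus, both groups being of the C57BL/6J strain. CFs were freshly obtained by enzymatic dissociation of the heart, red blood cell lysis and depletion of hematopoietic lineages, with no further sort of the sequenced cells described, whereas the labels also list a growth medium. The study checked native CFs by flow cytometry for a lack of hematopoietic and vascular surface markers and for mesenchymal ones. The methods name 3 mice of each genotype but do not tie a mouse to a library, so p-values measure the spread between these libraries.

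Smooth muscle contracts when calcium signalling switches on myosin light chain kinase, which phosphorylates the regulatory light chain of smooth muscle myosin and lets it pull on filaments of smooth muscle actin. Calponin, transgelin, smoothelin and leiomodin bind these actin filaments, and desmin forms the intermediate filaments that link them. The genes are switched on by serum response factor (SRF) with its coactivators myocardin and the MRTFs, through a DNA element called the CArG box. In the heart they mark the smooth muscle cells of coronary vessels and part of the pericytes, and several of them, *Acta2* and *Tagln* foremost, are also switched on in fibroblasts that become myofibroblasts. In bulk samples such as these, fewer cells of a type and less RNA per cell cannot be told apart.

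The reads counted on genes ranged from 9595701 in WT replicate 3 to 42101393 in WT replicate 1, and the 3 counts that a count of 0 allows correspond to between 0.0713 and 0.313 CPM, that is, counts scaled to the size of the library, counting error only. The targeted *Charme* was counted 26, 15 and 4 times in the WT libraries and 7, 0 and 0 times in the CharmeKO libraries, in the order of replicates 1 to 3. Scaled to the library totals, this was 0.618, 0.537 and 0.417 CPM in WT and 0.260, 0 and 0 CPM in CharmeKO. Of 15789 tested genes, 131 (0.83%) passed an adjusted p-value of 0.05 in edgeR's quasi-likelihood test, a number that lay between 61 without CharmeKO replicate 1 and 349 without WT replicate 2. The fibroblast markers *Gsn* and *Dcn* were at 20829 and 3185 normalized CPM in WT. The endothelial markers *Cdh5* and *Pecam1*, at 2059.8 and 1082 CPM, were abundant as well, and every gene of the marker lists had a count in at least 1 library.

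None of the 10 contractile genes passed the threshold between CharmeKO and WT, beside 0.83% of all tested genes, the adjusted p-values of edgeR lying between 0.188 and 0.946. Of the 10 genes, 7 had a higher mean in CharmeKO, with log2 fold changes between 0.13 for *Mylk* and 0.42 for *Cnn1*, and 3 a lower one, where 51.2% of all tested genes had a positive value. Without CharmeKO replicate 1 the split was 5 higher and 5 lower. The median log2 fold change of the 10 genes was 0.19, and that of all tested genes was 0.0096. *Smtn* stood apart from the others, with a CharmeKO level 0.715 times that of WT (95% interval 0.576 to 0.888). The 3 CharmeKO libraries did not overlap with the 3 WT libraries in 3 of the 10 genes, *Tagln* and *Cnn1* with higher values and *Smtn* with lower ones, where 9.57% of all tested genes did not overlap with higher values, 8.59% with lower ones and 18.2% in either direction. An unadjusted p-value under 0.05 was found for 1 of the 10 genes, *Smtn*, and for 12.8% of all tested genes.

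**Figure D1:**
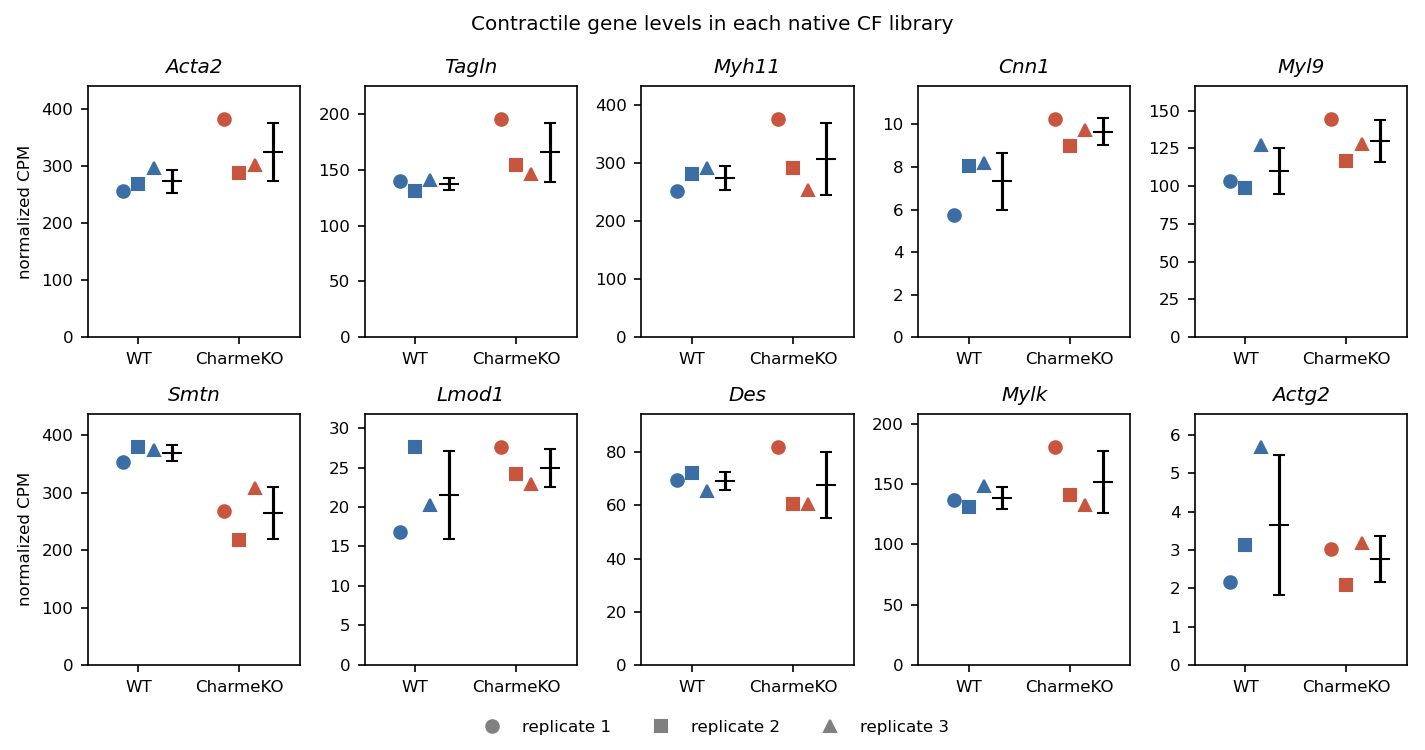
Normalized CPM (y axis, starting at 0) of each of the 10 contractile genes in the 3 WT (blue) and 3 CharmeKO (red) libraries, with circles, squares and triangles for replicates 1, 2 and 3 and black bars for the mean and SD of each group. CharmeKO replicate 1 holds the highest value of 8 genes, while all 3 CharmeKO values of *Smtn* lie below the 3 WT values.

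The genes differed widely in level. Per kilobase of exon, *Acta2* was the highest at 136 ± 20.2 CPM per kb (SD, n = 6), followed by *Myl9* at 103.1 ± 14.6, *Tagln* at 76.3 ± 11.6 and *Smtn* at 72.4 ± 14.9 CPM per kb, and over the 6 libraries each of the first 3 overlapped with the next in the order, whereas *Smtn* did not overlap with *Myh11*. *Myh11* at 38.2 ± 5.97, *Des* at 18.2 ± 2.20, *Mylk* at 12.9 ± 1.66 and *Lmod1* at 5.89 ± 1.08 CPM per kb were each separate from their neighbours in that order. *Cnn1* at 3.10 ± 0.584 and *Actg2* at 2.07 ± 0.843 CPM per kb were the lowest and overlapped with each other. Among the 15764 tested genes with a known exon length, *Acta2* ranked 281, *Myh11* 1071 and *Actg2* 9419. All 10 passed the filter of at least 10 counts in at least 2 libraries, and the fewest counts in any library were the 51 of *Actg2* in CharmeKO replicate 2.

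*Acta2* encodes alpha smooth muscle actin, the usual marker of myofibroblasts, and *Actg2* encodes gamma smooth muscle actin, the main actin of visceral smooth muscle. Their coding sequences are alike, so the longest stretch that the 2 mRNAs share is printed here in capitals, with 20 bases on either side in lower case, to show how closely reads of one resemble the other (GENCODE mouse release 21 transcripts, 5′ to 3′).
Acta2: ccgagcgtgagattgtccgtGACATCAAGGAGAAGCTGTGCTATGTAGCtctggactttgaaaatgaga
Actg2: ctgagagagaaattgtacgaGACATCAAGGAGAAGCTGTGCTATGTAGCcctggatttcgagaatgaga
The shared run was 29 bases long and lay in the coding sequence of both, at bases 961 to 989 of the *Acta2* transcript and 756 to 784 of the *Actg2* transcript. No 50-base window of *Actg2* occurred in a transcript of another gene, and 0.352% of those of *Acta2* did, none of them in *Actg2*. For *Myh11* the share was 0.4%, with the non-muscle myosins *Myh9* and *Myh10*, and the other 7 genes had none. At a window of 75 bases, none of the 10 genes shared a stretch with another gene. In GENCODE, none of the 10 overlapped a gene on its own strand. The read length is not given in the sources used here.

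*Acta2* was at 257, 268 and 296 normalized CPM in WT replicates 1, 2 and 3, and at 383, 288 and 302 CPM in CharmeKO replicates 1, 2 and 3. WT replicate 3 and CharmeKO replicate 2 overlapped, and CharmeKO replicate 1 alone stood clear of WT by a wide margin. On the log2 scale the difference came to 0.25 (standard error, SE, 0.14, with an adjusted p of 0.492 in edgeR), with a 95% interval of the fold from 0.961 to 1.47. Without CharmeKO replicate 1 it was 0.11.

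*Actg2* was at 2.16, 3.12 and 5.70 CPM in the WT libraries and at 3.04, 2.09 and 3.19 CPM in CharmeKO. CharmeKO replicates 1 and 3 lay within the WT range and CharmeKO replicate 2 just below it, and WT replicate 3 was the highest, from 53 counts. In log2 terms this was −0.34 (SE 0.38, adjusted p = 0.770 in edgeR), and it was 0.078 without WT replicate 3. Its coefficient of variation within groups, 38.5%, was the largest of the list, the other 9 genes lying between 11.7% and 19.4%. The median of all tested genes was 16.2%, and that of tested genes with a mean CPM at least that of *Actg2* was 12.5%.

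*Myh11* encodes the smooth muscle myosin heavy chain, the motor protein most restricted to smooth muscle. It was at 251, 280 and 291 CPM in the WT libraries and at 376, 291 and 253 CPM in CharmeKO, so that 2 CharmeKO libraries lay within the WT range and only CharmeKO replicate 1 lay above it. The log2 fold change of 0.16 (SE 0.15, adjusted p = 0.725 in edgeR) became −0.0082 without CharmeKO replicate 1. *Myh11* is also a gene of the list for which the study designed qPCR primers, used there on cultured CFs, and they are shown to place the amplicon on the transcript.
Myh11 forward: ggcaagaaagacagcagcat
Myh11 reverse: agcctccaggattgggtttg
They delimit 72 bases, from 723 to 794 of the longest *Myh11* transcript, inside its coding sequence, and matched no transcript of another gene.

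*Myl9*, the regulatory light chain that the kinase phosphorylates, was at 103.6, 98.7 and 127 CPM in the WT libraries and at 145, 117 and 128 CPM in CharmeKO. The groups overlapped through WT replicate 3. The fitted log2 difference was 0.24 (SE 0.13, adjusted p = 0.482 in edgeR), and it was 0.16 without CharmeKO replicate 1. *Mylk*, the kinase, was at 137, 131 and 149 CPM in the WT libraries and at 181, 141 and 133 CPM in CharmeKO, again with CharmeKO replicate 1 as the only library outside the WT range. Its log2 fold change was 0.13 (SE 0.14, adjusted p = 0.759 in edgeR), and −0.015 without CharmeKO replicate 1.

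Among the proteins that bind actin, *Tagln* encodes transgelin, also called SM22. It was at 140, 131 and 141 CPM in the WT libraries and at 196, 155 and 147 CPM in CharmeKO, and the groups did not overlap. The distance between the highest WT and the lowest CharmeKO library was small beside the spread within CharmeKO. In log2 terms *Tagln* differed by 0.27 (SE 0.13, adjusted p = 0.424 in edgeR), and 0.14 without CharmeKO replicate 1. *Cnn1*, calponin 1, which holds back myosin on actin filaments, was at 5.76, 8.03 and 8.18 CPM in the WT libraries and at 10.3, 9.0003 and 9.74 CPM in CharmeKO. These groups did not overlap either, and WT replicate 1 was the lowest library. The log2 fold change of 0.42 was the largest of the list in this direction (SE 0.20, adjusted p = 0.410 in edgeR, fold 1.33 with a 95% interval from 0.990 to 1.80), and it was 0.26 without WT replicate 1.

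*Lmod1* encodes leiomodin 1, which nucleates actin filaments in smooth muscle. It was at 16.8, 27.6 and 20.2 CPM in the WT libraries and at 27.7, 24.2 and 23.0 CPM in CharmeKO, and WT replicate 2 was nearly level with the highest CharmeKO library. Its log2 difference was 0.21 (SE 0.18, adjusted p = 0.681 in edgeR), between 0.052 without WT replicate 1 and 0.44 without WT replicate 2. *Des*, desmin, is also abundant in cardiomyocytes. It was at 69.8, 72.4 and 65.5 CPM in the WT libraries and at 82.2, 60.5 and 60.5 CPM in CharmeKO, where CharmeKO replicate 1 was above all WT libraries and the other 2 below them. For *Des* the log2 difference was −0.033 (SE 0.13, adjusted p = 0.946 in edgeR), with a 95% interval of the fold from 0.798 to 1.20.

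*Smtn* encodes smoothelin, an actin-binding protein of contractile smooth muscle. It was at 354, 380 and 375 CPM in the 3 WT libraries, and at 268, 217 and 308 CPM in CharmeKO replicates 1, 2 and 3. The 3 WT libraries lay close together, and each CharmeKO library was below them. Its log2 fold change of −0.48 (SE 0.14) had an unadjusted p of 0.00567 and an adjusted p of 0.188 in edgeR, and leaving out single libraries moved it between −0.61 and −0.36. DESeq2, the tool of the study, gave −0.49 on the same genes with an adjusted p of 0.0295, where 2.5% of all tested genes passed. In edgeR without a gene filter beyond 1 count the adjusted p was 0.0361. The count of *Smtn* came from 3484 to 15035 reads in the WT libraries and from 5305 to 9366 in CharmeKO.

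**Figure D2:**
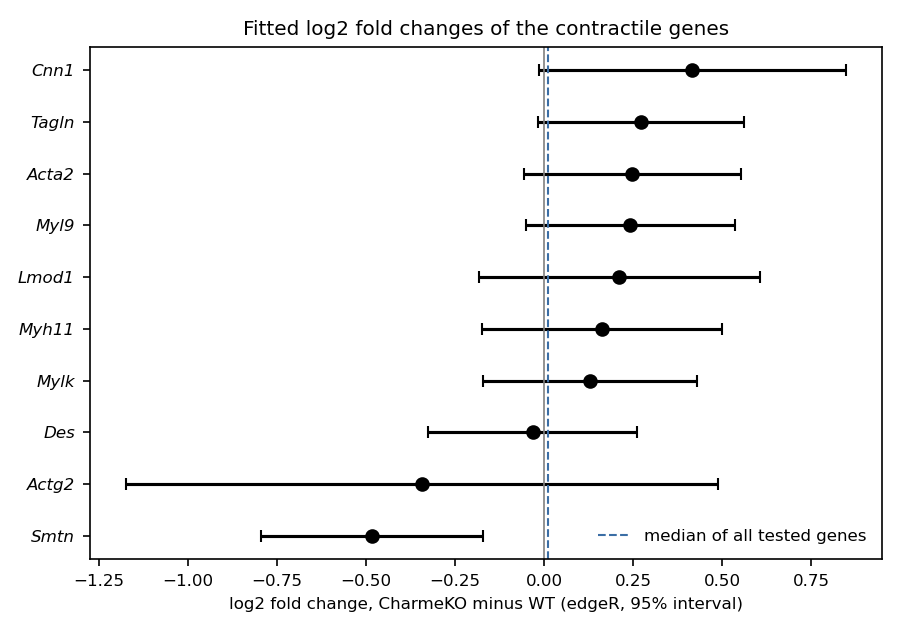
Fitted log2 fold changes between CharmeKO and WT (x axis, 0 is no difference) of the 10 contractile genes, with 95% intervals from edgeR, and the median of all tested genes as a dashed line at 0.0096. *Smtn*, at −0.48, is the gene whose interval does not include 0, and the interval of *Actg2*, the gene with the fewest counts, is the widest.

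Across libraries, CharmeKO replicate 1 had the highest value for 8 of the 10 genes, and no gene was highest in CharmeKO replicate 2 or 3. The lowest value was found in WT replicate 1 for 4 genes, in WT replicate 2 for 3 and in CharmeKO replicate 2 for 3. On the log2(CPM + 1) scale, each gene centred on its mean, the median of the 10 genes was −0.20, −0.046 and 0.0070 in the 3 WT libraries, and 0.27, −0.028 and −0.0052 in CharmeKO replicates 1, 2 and 3. CharmeKO replicates 2 and 3 thus lay within the range of WT. *Acta2* was nearest to this median course, with a root mean square difference of 0.057, and *Smtn* and *Actg2* were farthest from it, at 0.37 and 0.36. Without CharmeKO replicate 1, the median log2 fold change of the 10 genes was 0.052. The sum of the 10 genes was between 1337 and 1478 CPM in WT and between 1304 and 1672 CPM in CharmeKO.

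**Figure D3:**
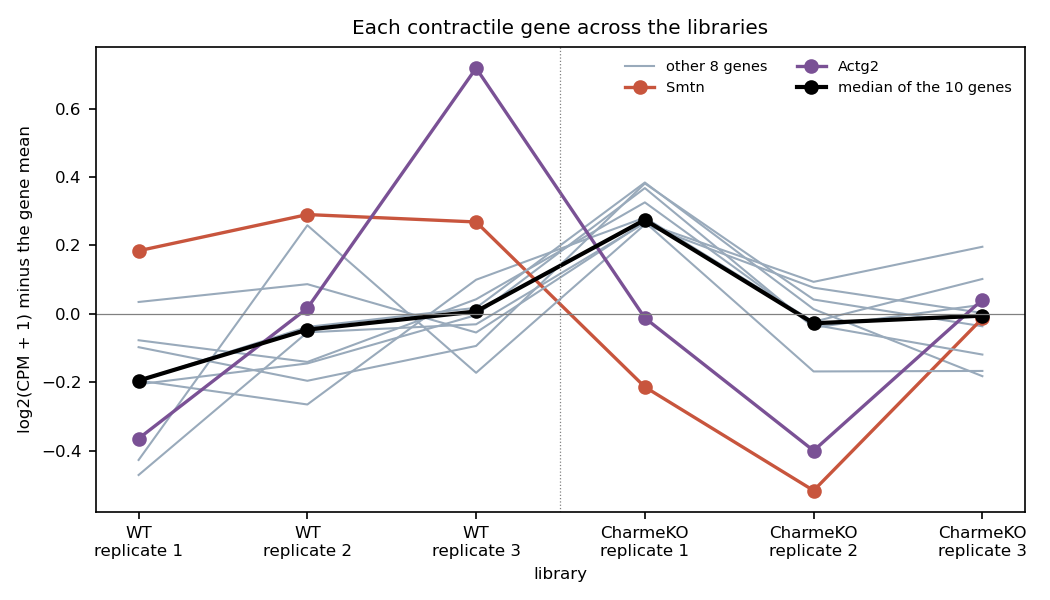
Log2(CPM + 1) of each contractile gene minus its mean (y axis) in the 6 libraries (x axis), with the median of the 10 genes in black, *Smtn* in red, *Actg2* in purple and the other 8 genes in grey. Lines join the values of 1 gene and carry no order, and 8 genes peak together in CharmeKO replicate 1, where *Smtn* is at −0.21.

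Ratios of counts within a library do not depend on the scaling to the library total. The log2 ratio of *Myh11* to *Acta2*, which sets the smooth muscle motor against the actin shared with myofibroblasts, was 0.0044 ± 0.053 (SD, n = 3) among WT and −0.089 ± 0.14 (SD, n = 3) in CharmeKO (exact permutation test, two-sided, p = 0.5). That of *Tagln* to *Acta2* was −0.99 ± 0.11 in WT and −0.97 ± 0.073 in CharmeKO (exact permutation test, two-sided, p = 0.8), and that of *Actg2* to *Acta2* was −6.33 ± 0.61 and −6.87 ± 0.28 (exact test, p = 0.2). Set against the pericyte marker *Rgs5*, *Acta2* was at −1.73 ± 0.36 in WT and −1.60 ± 0.18 in CharmeKO (exact test, p = 0.7), and *Des* at −3.71 ± 0.26 and −3.86 ± 0.20 (exact test, p = 0.5). All 5 ratios overlapped between the groups and had adjusted p-values of 0.8 in these exact tests, for which 0.1 is the smallest p that 3 libraries against 3 allow. The ratios of *Smtn* to the other members were added after their values had been seen and were not tested. The log2 ratio of *Smtn* to *Acta2* was 0.44 ± 0.085 (SD, n = 3) among WT and −0.30 ± 0.29 (SD, n = 3) in CharmeKO. Its value was 0.46, 0.51 and 0.34 in the WT libraries and −0.51, −0.41 and 0.030 in the CharmeKO libraries. *Smtn* had a lower mean ratio in CharmeKO against all 9 other members, and the groups did not overlap for 7 of these, *Des* and *Actg2* being the exceptions. *Smtn* also had the lowest log2 fold change of the list. As the numerator of all 9 ratios, it set their shared direction in advance.

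In a list of 25 other genes typical of smooth muscle, 24 were tested and 0 passed the threshold in edgeR's quasi-likelihood test, 17 with a higher and 7 with a lower mean in CharmeKO, at a median log2 fold change of 0.049. Of these 24 genes, 5 had an unadjusted p-value under 0.05 with higher values and 1 with lower ones, where 5.9% and 6.87% of all tested genes did. The most abundant were *Csrp1*, a LIM protein of actin bundles, at 309 ± 23.2 CPM (SD, n = 3) among WT and 311 ± 17.7 CPM in CharmeKO, and *Itpr1*, the calcium release channel of the endoplasmic reticulum, at 225 ± 5.23 and 224 ± 15.3 CPM. Both had nearly equal means in the groups. *Sncg*, gamma-synuclein, had the largest higher value, 16.1 ± 1.03 CPM in WT and 25.7 ± 2.80 CPM in CharmeKO (log2 fold change 0.67, adjusted p = 0.0519 in edgeR and 0.00674 in DESeq2), and *Cacna1c*, the pore of the L-type calcium channel, the largest lower one, 34.0 ± 4.17 and 26.0 ± 3.36 CPM (log2 fold change −0.39, adjusted p = 0.291 in edgeR). The groups did not overlap in either gene. This held for 2 of the 24 genes with higher values and 2 with lower ones, beside 9.57% and 8.59% of all tested genes. The *Sncg* call of DESeq2 was the only one of that tool in the list.

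Broadly expressed counterparts of the contractile genes form stress fibres in most cells, and the list of them also holds the intermediate filament gene *Vim*. The summed level of this list was between 12293 and 14537 CPM in WT and between 11512 and 14064 CPM in CharmeKO. Some of its genes had lower levels than *Myh11*. Of 22 such genes, all tested, 0 passed the threshold in edgeR. CharmeKO had a higher mean in 8 and a lower mean in 14, and the median log2 fold change was −0.11. At an unadjusted p under 0.05 in edgeR, 0 were higher and 2 lower, beside 5.9% and 6.87% of all tested genes. *Vim*, vimentin, was at 2538 ± 273 CPM (SD, n = 3) among WT and 2247 ± 293 CPM in CharmeKO, and *Actb*, cytoplasmic beta actin, at 1392 ± 191 and 1393 ± 154 CPM. Among 17 genes that set the phosphorylation of the light chain (kinases, the myosin phosphatase and their regulators), 0 passed in edgeR, 8 had higher and 9 lower means, and the median log2 fold change was −0.026. At an unadjusted p under 0.05 in edgeR there were 0 higher and 2 lower genes, beside the same shares of all tested genes. *Rhoa*, a small GTPase that acts on the actin cytoskeleton, had means of 467 ± 29.9 CPM (SD, n = 3) among WT and 458 ± 27.7 CPM among CharmeKO libraries.

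Of 21 genes of transcriptional control, 0 passed the threshold in edgeR and 13 had a lower mean in CharmeKO, with a median log2 fold change of −0.10. At an unadjusted p under 0.05 in edgeR there were 0 higher and 5 lower genes, beside 5.9% and 6.87% of all tested genes. *Srf*, the factor that binds the CArG box, was at 136 ± 8.98 CPM (SD, n = 3) among WT and 119 ± 20.0 CPM in CharmeKO (log2 fold change −0.18, adjusted p = 0.619 in edgeR). *Myocd*, its smooth and cardiac muscle coactivator, was at 4.77 ± 0.440 and 6.05 ± 1.86 CPM (0.35, adjusted p = 0.631 in edgeR). *Mrtfa*, a coactivator that is released by actin polymerization, was at 57.0 ± 9.13 and 39.6 ± 7.12 CPM (−0.52, unadjusted p = 0.00684, adjusted p = 0.202 in edgeR), and its relative *Mrtfb* at 71.5 ± 11.4 and 75.9 ± 10.2 CPM (0.084, adjusted p = 0.854 in edgeR). The WT and CharmeKO libraries overlapped in all 4 genes. The most abundant of the list were *Klf4*, a repressor of contractile genes that also responds early to cell stress, at 1957 ± 326 and 1967 ± 190.2 CPM, and *Wwtr1*, which encodes TAZ, at 316 ± 17.8 and 325 ± 21.1 CPM.

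Promoter sequences, from 250 bases before to 50 bases after the start of the gene (RefSeq, GRCm38.p6), were at hand for 7 of the 10 genes and not for *Tagln*, *Myh11* and *Actg2*. They were searched on both strands for the CArG box, the SRF element named above. The windows with a match are printed here, the box in capitals, to show which of the genes hold this element near their start.
Acta2, chr19:34255428-34255477, minus strand: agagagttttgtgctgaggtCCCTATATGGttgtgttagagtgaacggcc
Acta2, chr19:34255378-34255427, minus strand: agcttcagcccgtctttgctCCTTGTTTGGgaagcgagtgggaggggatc
Myl9, chr2:156775283-156775332, plus strand: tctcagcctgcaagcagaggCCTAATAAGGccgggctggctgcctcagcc
Myl9, chr2:156775345-156775394, plus strand: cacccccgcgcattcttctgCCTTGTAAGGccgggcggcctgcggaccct
The *Myl9* box that begins 161 bases upstream of the start has no mismatch, and the other 3, at 84 and 34 bases in *Acta2* and 99 bases in *Myl9*, have 1 mismatch in the centre of the box. A box without mismatch was found in 1 of the 7 promoters and in 1.63% of all 32851 promoters of the table, and a box with at most 1 such mismatch in 2 of the 7 and in 9.98% of all. No such box was found in the window of *Smtn*, *Cnn1*, *Lmod1*, *Des* or *Mylk*.

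Pericytes share several of the 10 genes with smooth muscle cells. Of 17 pericyte markers, 0 passed the threshold in edgeR's quasi-likelihood test, 6 had a higher and 11 a lower mean in CharmeKO, and the median log2 fold change was −0.023. At an unadjusted p under 0.05 in edgeR there were 1 higher and 2 lower genes, beside 5.9% and 6.87% of all tested genes. *Rgs5*, a regulator of G protein signalling and the most abundant of them, was at 916 ± 180 CPM (SD, n = 3) among WT and 977 ± 78.5 CPM in CharmeKO (log2 fold change 0.092, adjusted p = 0.856 in edgeR). *Notch3*, a receptor that vascular smooth muscle also expresses, was at 485 ± 27.4 and 377 ± 56.3 CPM (−0.36, adjusted p = 0.306 in edgeR), without overlap between the groups. The largest difference downwards was that of *Cspg4*, the NG2 proteoglycan, at 128, 124 and 135 CPM in WT and 85.8, 70.0 and 105.003 CPM in CharmeKO (−0.57, adjusted p = 0.126 in edgeR and 0.0158 in DESeq2). Like *Smtn*, *Cspg4* had every CharmeKO library below every WT library, with CharmeKO replicate 2 the lowest. The groups did not overlap with lower values in 3 of the 17 markers and with higher ones in 1, beside 8.59% and 9.57% of all tested genes. The largest upwards was that of *Cox4i2*, a cytochrome oxidase subunit, at 21.7 ± 2.39 and 27.4 ± 1.03 CPM (0.33, adjusted p = 0.318 in edgeR). The summed level of the pericyte markers was between 2397 and 2870 CPM in WT and between 2315 and 2602 CPM in CharmeKO.

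Genes of fibroblast activation, which accompany *Acta2* and *Tagln* in myofibroblasts, had mostly lower means in CharmeKO. Of 19 such genes, 15 were lower and 4 higher, the median log2 fold change being −0.34, and 0 passed the threshold in edgeR. At an unadjusted p under 0.05 in edgeR, 3 were higher and 1 lower, beside 5.9% and 6.87% of all tested genes. *Fn1*, fibronectin, was at 1549, 1071 and 1609 CPM in the WT libraries and at 986, 935 and 1040.5 CPM in CharmeKO (−0.51, adjusted p = 0.233 in edgeR and 0.0381 in DESeq2). *Ccn2*, a target of TGF-beta, was at 382 ± 76.9 CPM (SD, n = 3) among WT and 301 ± 61.3 CPM in CharmeKO (−0.34, adjusted p = 0.453 in edgeR). The other gene of the list that DESeq2 called, *Nox4*, an NADPH oxidase, was named after its values had been seen and lay in the opposite direction, at 4.06 ± 1.02 and 8.69 ± 1.05 CPM (1.07, adjusted p = 0.0696 in edgeR and 0.00579 in DESeq2). The summed level of the list was between 2077 and 3288 CPM in WT and between 2027 and 2287 CPM in CharmeKO, with WT replicate 2 within the CharmeKO range.

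Cardiomyocytes also express *Des* and *Myocd*. Of 17 tested cardiomyocyte markers, 16 had a higher mean in CharmeKO and 3 passed the threshold in edgeR with higher values in CharmeKO and 0 with lower ones, where 0.418% and 0.412% of all tested genes did. These were *Myh6*, the alpha myosin heavy chain, at 59.1 ± 3.57 CPM (SD, n = 3) among WT and 106.3 ± 24.5 CPM in CharmeKO (log2 fold change 0.85, adjusted p = 0.0292 in edgeR), *Tnni3*, cardiac troponin I, at 27.5 ± 3.90 and 53.6 ± 11.0 CPM (0.95, adjusted p = 0.0200 in edgeR), and *Mb*, myoglobin, at 107 ± 13.1 and 200.1 ± 46.6 CPM (0.90, adjusted p = 0.0339 in edgeR). None of these 3 calls was left without WT replicate 3, CharmeKO replicate 1 or CharmeKO replicate 2, and 1 was left without WT replicate 1. The summed level of the list was 589, 477 and 548 CPM in the 3 WT libraries and 1020, 816 and 673 CPM in CharmeKO replicates 1, 2 and 3. It was thus highest in CharmeKO replicate 1, the library in which 8 of the 10 contractile genes peaked, at 1.90 times the WT mean, whereas the contractile genes summed to 1.19 times their WT mean in that library. In CharmeKO replicates 2 and 3 the cardiomyocyte sum was 1.52 and 1.25 times the WT mean and the contractile sum 0.928 and 0.973 times. The contractile sum includes *Smtn*, at 268, 217 and 308 CPM in CharmeKO replicates 1, 2 and 3 beside a WT mean of 370 CPM. *Smtn* lowers the contractile sum in all CharmeKO libraries, whereas 7 of the 10 genes had a higher mean in CharmeKO. The sum therefore does not describe the other members. The part of cardiomyocyte RNA in the values of the contractile genes was not tested.

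**Figure D4:**
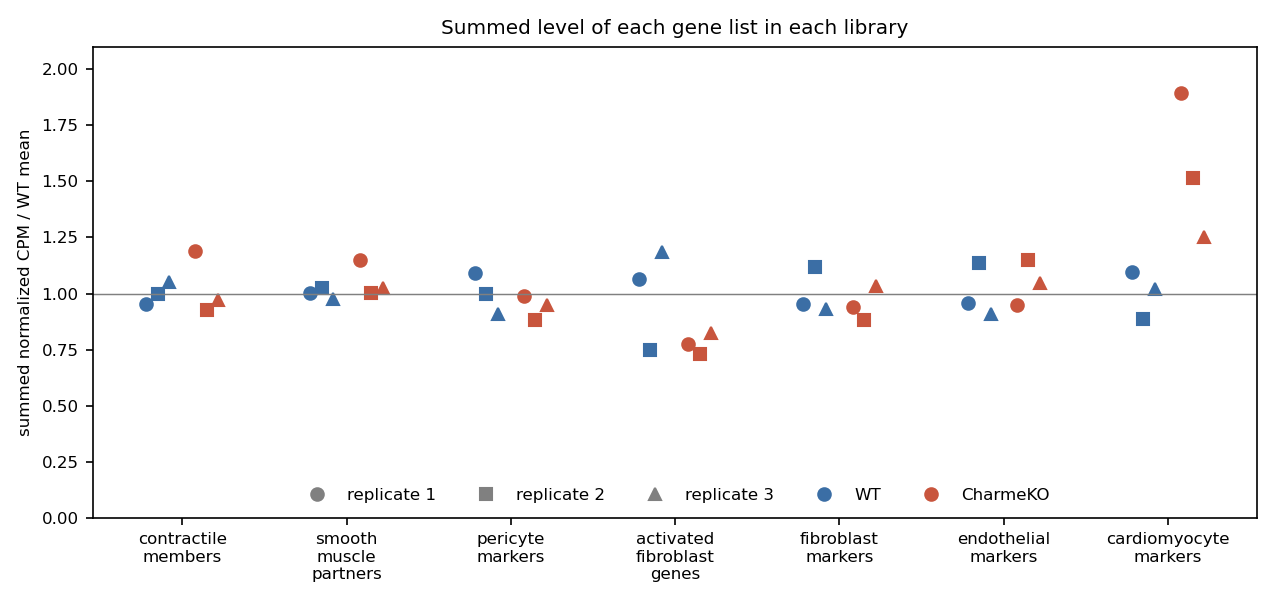
Summed CPM of each gene list in each library, divided by the mean of the 3 WT libraries (1 is the WT mean), with WT in blue and CharmeKO in red. The contractile sum of CharmeKO replicate 1 is at 1.19 and the cardiomyocyte sums of CharmeKO lie between 1.25 and 1.90. The contractile sums include *Smtn*, which was lower in every CharmeKO library.

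In the other marker lists 0 genes passed the threshold in edgeR. The 10 fibroblast markers summed to between 31562 and 38004 CPM in WT and between 29951 and 35055 CPM in CharmeKO, with 4 higher and 6 lower means and, at an unadjusted p under 0.05, 1 higher and 2 lower genes. The 10 endothelial markers summed to between 6974 and 8725 CPM in WT and between 7292 and 8850 CPM in CharmeKO, with 6 higher and 4 lower means and 2 higher and 1 lower gene at an unadjusted p under 0.05. Of all tested genes, 5.9% were higher and 6.87% lower at that unadjusted p in edgeR. Leukocyte markers (8 of 10 tested) summed to between 37.8 and 73.5 CPM in WT and between 48.9 and 67.8 CPM in CharmeKO, and the B cell gene *Cd79a* had the highest level among them. Schwann cell markers (5 of 6 tested), *Sox10* among them, summed to between 8.51 and 9.59 CPM in WT and between 8.63 and 10.9 CPM in CharmeKO. Neither of these 2 lists had a gene at an unadjusted p under 0.05. All of these ranges overlapped between the groups.

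Among 2092 tested genes outside the list whose course over the 6 libraries spanned at least 1 log2 unit, the nearest to the median course of the contractile genes were *Csrp3*, *Gpr27*, *Rab27b*, *Zfp938* and *Grtp1*, with root mean square differences between 0.223 and 0.236 on the log2(CPM + 1) scale. *Csrp3*, the muscle LIM protein, had means of 7.03 CPM in WT and of 10.7 CPM in CharmeKO, and the other 4 were below 3 CPM in both groups. The contractile median itself spanned 0.47 log2 units, less than the span required of these genes.

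When single libraries were omitted, the direction of *Acta2*, *Tagln*, *Cnn1*, *Myl9*, *Lmod1* and *Smtn* stayed as it was with all 6 libraries, and none of the 10 genes passed the threshold in edgeR. *Myh11* and *Mylk* turned negative without CharmeKO replicate 1, *Des* turned positive without CharmeKO replicate 2 or 3, and *Actg2* turned positive without WT replicate 3. The median of the 10 genes lay between 0.052 without CharmeKO replicate 1 and 0.26 without CharmeKO replicate 3.

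**Figure D5:**
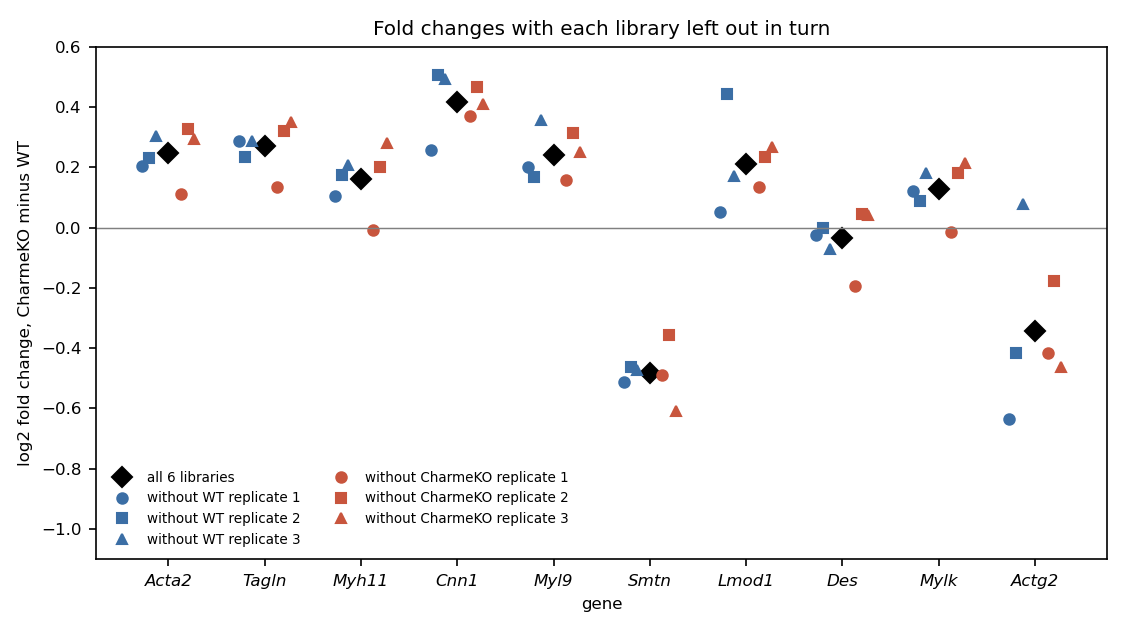
Log2 fold change between CharmeKO and WT of each contractile gene with all 6 libraries and after omission of each single library. *Smtn* stays between −0.61 and −0.36, and *Myh11*, *Mylk*, *Des* and *Actg2* cross 0.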

How the data were processed

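Gene counts were deposited by the authors as 1 table of whole-number counts per gene and library, made with STAR (gene counts on the reverse strand setting) against GRCm39 and an Ensembl annotation to which *Charme* was added. The labels also list GRCh38, and the aligner version is not given in the sources used here. Counting by strand keeps reads of opposite-strand neighbours apart (in GENCODE, 62.4% of *Tagln* and 16.3% of *Smtn* exon bases lie opposite such a gene), and uniquely assigned counts lower genes with near-identical copies.

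All 49548 genes were read, of which 15789 had at least 10 counts in at least 2 libraries and were tested with edgeR 4.0.16 (TMM, quasi-likelihood, Benjamini-Hochberg, threshold 0.05) in R 4.3.3, WT and CharmeKO as the groups. DESeq2 1.42.0 was an alternative, since it is the tool of the study. CPM are normalized by TMM library sizes. Standard errors are the log2 fold change divided by the square root of F. Levels per kilobase use exon lengths of GENCODE mouse release 21, an older build (GRCm38) used for lengths and transcript sequences alone. Ratios had a pseudocount of 0.5 counts. No libraries were duplicates: the chi-square statistic per gene between libraries of a group was at least 15.3. The tests were tested on simulated data. The alternatives were DESeq2, other scalings and filters, thinned counts, a replicate block and leaving out each library.

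The 10 genes, the other lists and the tests were chosen with earlier results of these data known. Named genes are the 10 members, in each list the 2 most abundant genes and those past the threshold, the 4 SRF factors, the largest difference in each direction among smooth muscle and pericyte genes, and the 5 genes of most similar course. Some genes that this rule would name are not reported here.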

Additional observations from a re-analysis of the deposited data

How the results depend on the processing

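The number of genes past the threshold among all tested genes was 394 in DESeq2, 699 in edgeR without a filter beyond 1 count, 302 with a replicate block, and between 61 and 349 with each library left out. Among the 10 contractile genes it was 1, *Smtn*, in DESeq2 and without the filter, and 0 in 12 other alternatives. The adjusted p of *Smtn* lay between 0.0295 and 0.590 over all alternatives, its log2 fold change being −0.49 in DESeq2 and −0.48 without the filter. Same-numbered libraries of the groups correlated at 0.216, 0.0535 and 0.161 in their deviations from the group means, and every library correlated best with its own number. The labels and methods do not say whether same-numbered libraries were handled together. The main p-values of edgeR therefore take the libraries as unpaired, and whether the numbers mark a batch was not tested. With the replicate block *Smtn* was at −0.50 (adjusted p = 0.0924 in edgeR), and no call among the 10 genes differed.

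With each library left out, the log2 fold change lay between −0.0082 and 0.28 for *Myh11*, −0.19 and 0.046 for *Des* (0.042 without CharmeKO replicate 3), −0.015 and 0.22 for *Mylk*, 0.16 and 0.36 for *Myl9*, and −0.63 and 0.078 for *Actg2*. The difference in log2 ratio lay between −0.017 and 0.082 for *Tagln* to *Acta2* (−0.013 without CharmeKO replicate 2), between −0.068 and 0.29 for *Acta2* to *Rgs5*, −0.14 and −0.011 for *Myh11* to *Acta2*, −0.82 and −0.22 for *Actg2* to *Acta2*, and −0.30 and −0.057 for *Des* to *Rgs5*. In DESeq2, 2.5% of all tested genes were called. Calls in that tool numbered 1 among smooth muscle genes, 1 among pericyte markers, 2 among activation genes, 1 among fibroblast markers (*Col1a1*), 1 among endothelial markers (*Vwf*) and 6 among cardiomyocyte markers. With each library left out, the calls in edgeR lay between 0 and 1 for smooth muscle, actomyosin, pericyte and fibroblast genes, 0 and 4 for activation genes, and 0 and 3 for cardiomyocyte markers. Over all tested genes they lay between 61 and 349. The 4 calls of activation genes arose without WT replicate 2, where 349 genes passed. The cause of these differences was not tested. Depth limits *Actg2* most, at 51 to 97 counts a library.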
